A study of Mus musculus with 12 samples.

Results

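Mouse liver mRNA was compared between ZT10, late in the light phase, and ZT14, early in the dark phase (ZT is zeitgeber time, in hr after lights on). The members are the 4 libraries labelled ZT10 and ZT14, 2 at each time, of the 12 RNA-Seq samples of the series. They came from the livers of C57BL/6 mice of 3 to 6 months that had been held in a cycle of 12 hr light and 12 hr dark for at least 2 weeks, with no other treatment and no altered allele in any group. The labels separate the 2 samples of a time by a replicate number. Of 20069 genes in the table, 10141 had at least 1 value above 8 rpbp in the 10 libraries used, and the members of interest are those whose 2 values at one time lay beyond both values at the other. The value of a gene is its mean coverage over the exons in reads per base pair (rpbp), at 40000000 uniquely mapped sequences per library.

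The liver clock is a feedback loop in which CLOCK and BMAL1 (the product of *Arntl*) activate the *Per* and *Cry* genes, whose proteins repress that activity, while the REV-ERB receptors (*Nr1d1*, *Nr1d2*) repress *Arntl*. Around the end of the day, liver passes from the resting and largely fasting state of a nocturnal animal to its active and feeding state, and clock signals, food, hormones and body temperature all reach the liver then. The comparison asks which mRNAs change across this transition. With whole liver, fewer cells of a type and less RNA per cell cannot be told apart.

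Replicates correlated at 0.976 at ZT10 and 0.981 at ZT14 (log2 values, across genes, which are not independent replicates), and correlations between a ZT10 and a ZT14 library were 0.956 to 0.975. The 2 values of a gene differed by more than 1.5-fold in 778 genes (7.67%) at ZT10 and in 658 genes (6.49%) at ZT14, against 427 to 696 genes at the other 3 times. The hepatocyte markers, a sum set mainly by *Alb*, came to between 123342 and 157851 rpbp in the 4 libraries. None of these 6 genes was called, but 4 had both ZT14 values above both ZT10 values (25.3% of all genes), 2 had an unadjusted p below 0.05 upward (9.95%), and their median log2 change was 0.36. Albumin mRNA held 6.33% to 8.21% of the summed signal. Of the 5 T and B cell markers found, none passed the expression minimum, and their sum was at most 3.20 rpbp. Erythroid markers differed between replicates, with 347 and 857 rpbp at ZT10 and 539 and 324 rpbp at ZT14. This difference lay in *Hbb-b1* (114 and 598 rpbp, then 297 and 128 rpbp), while *Alas2* was between 195 and 258 rpbp and the other 2 erythroid markers found were at most 0.24 rpbp. Of the cholangiocyte markers, *Spp1* was higher in the first ZT14 library, with 136 rpbp against 62.8 to 71.0 rpbp in the other 3. *Sox9* was higher in both ZT14 libraries, at 2.56 and 1.52 rpbp and then at 4.32 and 3.96 rpbp. No other cholangiocyte marker passed the expression minimum. The part of these differences in the results was not tested.

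Most mRNAs were little changed across lights off. The change was under 1.5-fold in 9387 of the 10141 genes (92.6%), and the median log2 change of all genes was 0.01. In 65 genes the mRNA rose from ZT10 to ZT14 (0.641% of genes tested) and in 41 genes it fell (0.404%), by limma's moderated test with an adjusted p below 0.05. Without the adjustment, p was below 0.05 in 1845 genes (18.2%). The fold was a median of 1.86 for the rises, from 1.40 to 31.2, and of 2.21 for the falls, from 1.43 to 41.4. Both values at ZT14 lay above both at ZT10 in all 65 rises, as in 25.3% of all genes, and below both in all 41 falls, as in 21.3%. The calls were made on these same values, so that this is a description and lends the calls no support. By the fold rule alone, the lower value at ZT14 was at least 1.5 times the higher value at ZT10 in 140 genes (1.38%), and the reverse held in 129 genes (1.27%). Of these, 52 and 37 genes passed limma too (0.513% and 0.365% of genes tested). Around the limit, *Shb* (16.3 and 16.9 rpbp at ZT10, 25.2 and 25.9 rpbp at ZT14) lay just outside, and *Prelid2* (8.4 and 0.76 rpbp, then 12.6 and 12.9 rpbp) lay just inside. Among falls, *Acot3* (63.9 and 145 rpbp, then 42.9 and 20.04 rpbp) was just outside and *Pctk2* (7.68 rpbp in both, then 5.12 and 4.96 rpbp) just inside.

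**Figure D1:**
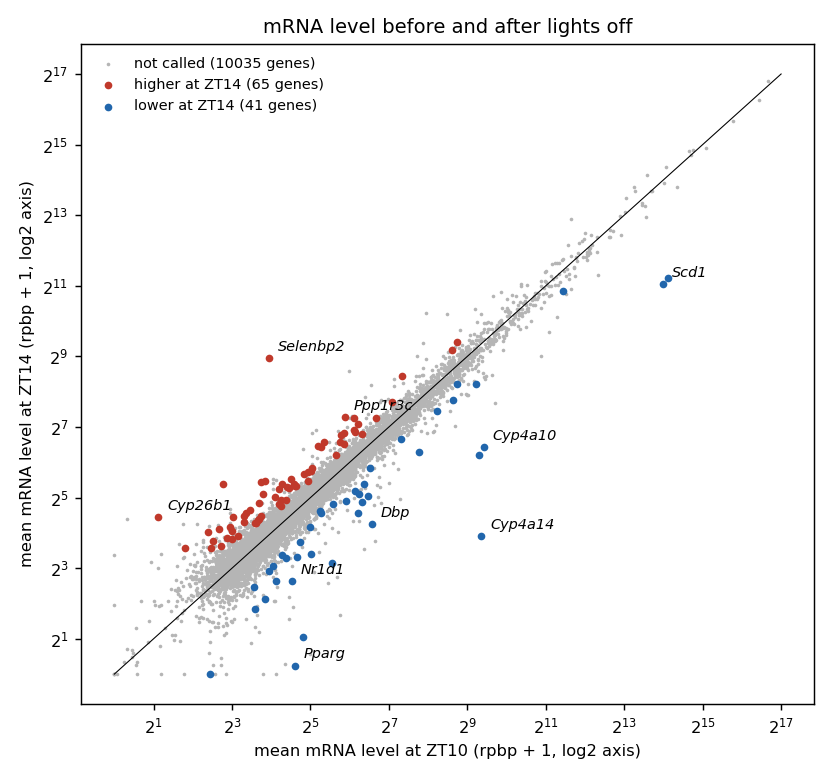
Mean mRNA level of each of the 10141 genes at ZT10 (x axis) and ZT14 (y axis), in rpbp plus 1 on log2 axes, means of 2 libraries. Red points are the 65 genes that rose and blue points the 41 that fell by limma, and most other genes lie close to the line of equal levels.

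The number of calls rested on single libraries. Without the first ZT10 library, 95 genes rose and 126 fell. Without the second ZT10 library 2 rose and 2 fell, without the first ZT14 library 2 rose and 7 fell, and without the second ZT14 library 0 rose and 4 fell, with an unadjusted p below 0.05 in 832 and 454 genes in that last case. These fits take the lone library to vary like those of the other times. A fit of the 4 libraries alone called 2 rises and 4 falls. With 1 library left out, the fold rule was met in 295 to 389 genes upward and 221 to 442 genes downward, since 1 value is easier to clear than a pair. The same holds for the calls of single genes given here, of which 36, 2, 6 and 4 of 49 were still called without the first and second ZT10 and the first and second ZT14 library. An exact permutation test of 2 against 2 libraries cannot go below p = 0.333 (two-sided), and limma borrows its spread from all 5 times.

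Where ZT10 and ZT14 stood among the 5 times is given as a description, since a rise fixes in part that ZT10 is low and a fall that it is high. In the genes that rose, the mean was lowest at ZT10 in 39 of the 65 (19.7% of all genes) and at ZT6 in 22 (17.6%). The highest mean fell at ZT14 in 26 (17.6% of all genes), at ZT2 in 24 (33.1%), at ZT18 in 14 (11.3%) and at ZT6 in 1 (22.1%). Both ZT2 libraries stood apart in *Saa1* and *Lcn2*, of the acute phase list, and in albumin. *Saa1* was at 14312 and 12917 rpbp at ZT2 and at most 233 rpbp elsewhere. *Lcn2* was at 540 and 431 rpbp at ZT2 and at most 37.6 rpbp elsewhere. Albumin mRNA held 3.26% and 3.5% of the summed signal at ZT2 and at least 6.33% elsewhere. The part of these differences in the extreme means at ZT2 was not tested. For the falls, the highest mean was at ZT6 in 25 of 41, at ZT10 in 9, at ZT2 in 6 and at ZT18 in 1, and the lowest was at ZT14 in 20 (17.1% of all genes) and at ZT2 in 16 (24.8%). From ZT14 to ZT18, a step that shares the ZT14 libraries, 2 of the 65 went on rising and 2 fell, while 10 of the 41 rose again and 2 fell further (0.345% and 0.316% of all genes rose and fell in that step).

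*Selenbp2*, a selenium-binding protein of liver (chromosome 3, 94497478 to 94508335, mm9), had the largest rise of all genes tested. Its mRNA was 13.2 and 15.6 rpbp at ZT10 and 365 and 628 rpbp at ZT14, a log2 change of 4.96 ± 0.70 (SE, adjusted p = 0.020). The 2 values at ZT14 differ widely, but the lower is far above both at ZT10. At ZT2 it stood higher still, at 2708.5 and 1531 rpbp, in the libraries that also stood apart in *Saa1*, *Lcn2* and albumin. *Cyp26b1*, a retinoic acid hydroxylase (chromosome 6, 84521938 to 84543740), was at 1.36 and 0.96 rpbp at ZT10 and at 16.96 and 24.9 rpbp at ZT14 (log2 change 3.33 ± 0.61, adjusted p = 0.049). Unlike *Selenbp2*, it had its highest mean at ZT14, with 3.44 and 3.72 rpbp at ZT18. Its values were above 8 rpbp at ZT14 alone, so that it entered the test only through the time at which it was high. Its call was lost with a pseudocount of 0.1 rpbp, with other size factors and without the limma trend. The entry 2310040A07Rik (*Enho* in RefSeq, a secreted peptide gene) went from 5.72 and 5.84 to 24.0 and 57.5 rpbp (log2 change 2.50 ± 0.46) and lost its call under the same settings.

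Several of the other large rises were in receptor, transport and metabolic genes. *Avpr1a*, the vasopressin receptor of hepatocytes (chromosome 10, 121885555 to 121890509), rose from 15.2 and 9.40 rpbp to 40.9 and 44.6 rpbp. *Slc41a2*, a magnesium transporter, rose from 13.3 and 13.6 rpbp to 39.0 and 47.0 rpbp. Both were higher again at ZT2, at 68.4 and 83.8 rpbp on average. *Chka*, a choline kinase of phosphatidylcholine synthesis (chromosome 19, 3851773 to 3894369), rose from 5.92 and 4.88 rpbp to 17 and 15.4 rpbp. *Ppp1r3c*, a subunit that brings protein phosphatase 1 to glycogen (chromosome 19, 36806227 to 36811143), rose from 47.6 and 67.6 rpbp to 160 and 147 rpbp, and was 1 of the 2 genes that rose again to ZT18 (417 and 468 rpbp; log2 change 1.52, adjusted p = 0.019). Log2 changes of these 4 genes were 1.75 ± 0.24, 1.60 ± 0.27, 1.43 ± 0.16 and 1.42 ± 0.17, with adjusted p from 0.019 to 0.039. *Cldn1*, a tight junction protein, rose from 36.6 and 34.8 rpbp to 90.7 and 82.3 rpbp (log2 change 1.25 ± 0.18). *Dtx4*, *Rtn4rl1*, *Baiap2* and *Tnfaip2* rose by 1.19 to 1.25 on the log2 scale from levels of 4.16 to 10.6 rpbp at ZT10. The other 3 of the 15 largest rises are entries without a gene name in the tables used.

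**Figure D2:**
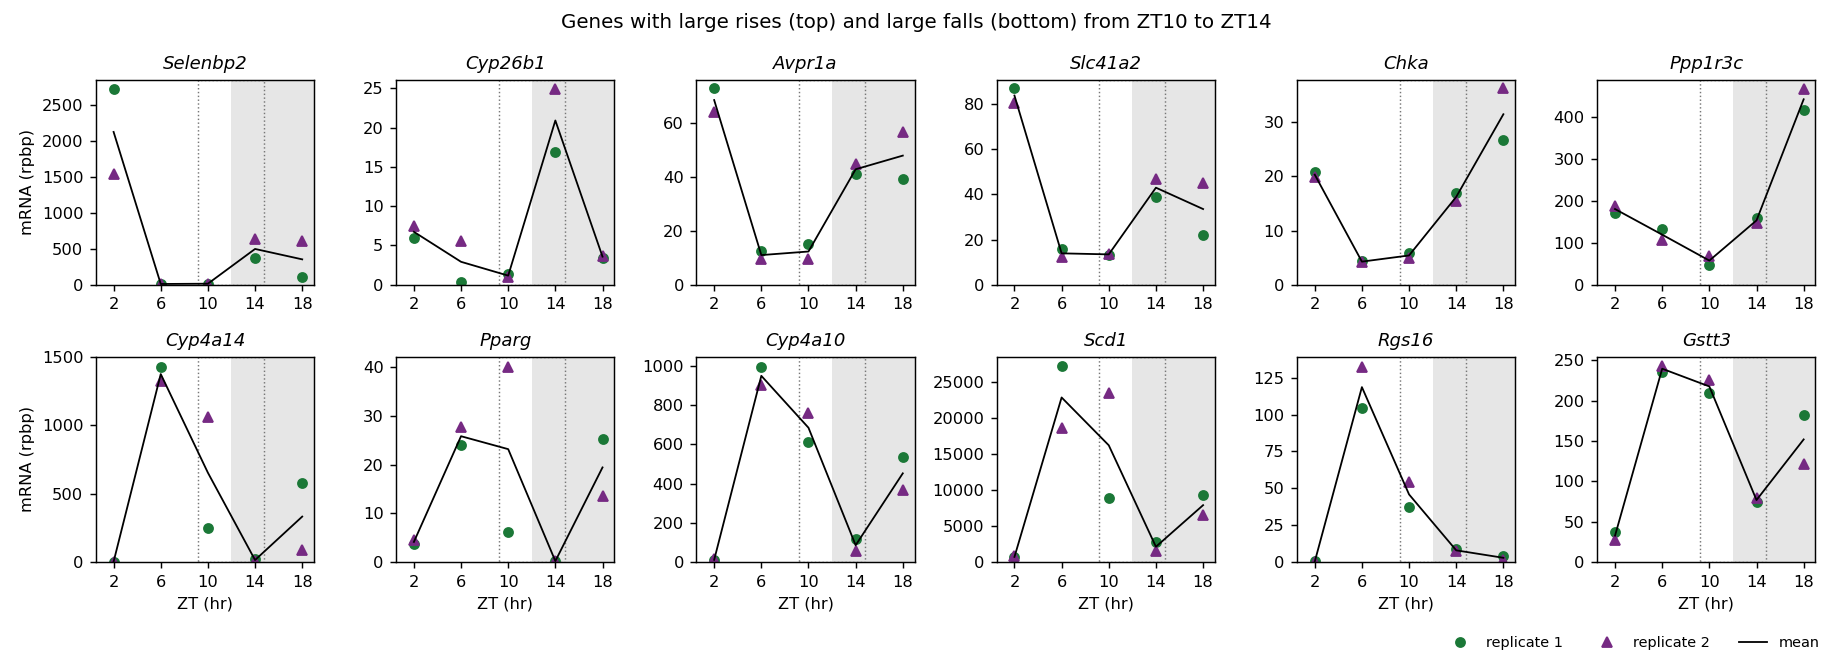
mRNA level in rpbp against ZT in hr for 6 genes that rose (top) and 6 that fell (bottom) from ZT10 to ZT14. Circles and triangles are the first and second replicate, the line joins their means, grey is darkness and the dotted frame holds ZT10 and ZT14. All values of the 2 framed times are apart in these 12 genes, while the replicates of *Cyp4a14*, *Pparg* and *Scd1* at ZT10 are far from each other.

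The deepest fall was in *Cyp4a14*, and genes of fatty acid metabolism were among the others. *Cyp4a14*, a fatty acid omega-hydroxylase (chromosome 4, 115158805 to 115168747), was at 248.8 and 1058 rpbp at ZT10 and at 22.4 and 5.60 rpbp at ZT14, a log2 change of -5.37 ± 0.94 (adjusted p = 0.041). Its close relative *Cyp4a10* (chromosome 4, 115190869 to 115206254) fell from 610 and 759 rpbp to 115 and 55.2 rpbp (log2 change -3.08 ± 0.32, adjusted p = 0.019). *Cyp4a31* followed it, at 0.485 to 0.924 times the value of *Cyp4a10* in all 10 libraries, and the share of each in these near-identical genes is uncertain. *Scd1*, the stearoyl-CoA desaturase that makes monounsaturated fatty acids (chromosome 19, 44468941 to 44482199), fell from 8948 and 23462 rpbp to 2719 and 1506 rpbp (log2 change -2.84 ± 0.44, adjusted p = 0.029). The entry BC114417 held 1.03 to 1.15 times the value of *Scd1* in every library and is not counted as a separate fall here. *Pparg*, a nuclear receptor of lipid storage (chromosome 6, 115311239 to 115440419), was at 6.24 and 40.2 rpbp at ZT10 and at 0.16 and 0.20 rpbp at ZT14 (log2 change -3.87 ± 0.65, adjusted p = 0.039). In the 4 genes other than *Cyp4a10* and *Cyp4a31*, BC114417 included, the 2 ZT10 libraries differed by more than 1.5-fold, the second being the higher. Without the limma trend *Cyp4a14* and *Pparg* lost their calls. These genes turned upward again: at ZT18, *Cyp4a10* was back at 535 and 369 rpbp (log2 change 2.46, adjusted p = 0.025) and *Pparg* at 25.3 and 13.6 rpbp (log2 change 4.05, adjusted p = 0.041), while *Cyp4a14* and *Scd1* were higher without passing the test (adjusted p = 0.082 and 0.088).

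Other falls included a signalling gene and glutathione S-transferases. *Rgs16*, a regulator of G protein signalling (chromosome 1, 155587479 to 155592598), fell from 37.2 and 54.4 rpbp to 8.52 and 7.24 rpbp (log2 change -2.38 ± 0.32). *Gstt3*, a glutathione S-transferase, fell from 210 and 226 rpbp to 74.2 and 79.3 rpbp (log2 change -1.49 ± 0.19). *Gsta2*, another of that class, fell from 25.0 and 37.2 rpbp to 8.64 and 10.5 rpbp (log2 change -1.58 ± 0.22). All 3 had an adjusted p of 0.019, and *Rgs16* lost its call with a pseudocount of 0.1 rpbp. Among the 15 largest falls are also AK202580, AK011120 and DQ722700, entries without a gene name in the tables used. AK202580, second only to *Cyp4a14*, was at 16.2 and 37.8 rpbp at ZT10 and at 0 and 2.12 rpbp at ZT14 (log2 change -3.87 ± 0.52, adjusted p = 0.019), and lost its call with a pseudocount of 0.1 rpbp. The fall with the lowest adjusted p was that of AK085337, an entry with no gene name in the tables used, which stood at 76.0 and 70.7 rpbp at ZT10 and 22.3 and 22.8 rpbp at ZT14 (log2 change -1.66 ± 0.09, adjusted p = 4.25e-04). Its 8 values at the other 4 times were all between 63.9 and 87.9 rpbp, so that ZT14 alone was low. It was called in every alternative fit, with each of the 4 libraries left out in turn as well.

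The clock genes moved in both directions across lights off, the lists being given by their members above the expression minimum. Of the 5 activators, 4 passed the minimum, since *Npas2* was at most 0.12 rpbp in the 4 libraries. All 4 had both ZT14 values above both ZT10 values (25.3% of all genes), and their median log2 change was 0.55. *Clock* rose from 17.4 rpbp in both libraries to 27.0 and 27.4 rpbp (log2 change 0.61 ± 0.10, adjusted p = 0.031). *Arntl* went from 2.84 and 4.44 rpbp to 7.76 and 12.9 rpbp, and its log2 change of 1.27 ± 0.28 missed the threshold (adjusted p = 0.081).

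Among 10 of the 11 repressors, 2 rose and 2 fell (0.641% and 0.404% of all genes), 3 and 3 had an unadjusted p below 0.05 (9.95% and 8.24%), and both ZT14 values lay above both ZT10 values in 3 and below in 5 (25.3% and 21.3%). *Cry1*, a repressor of CLOCK and BMAL1 (chromosome 10, 84594447 to 84647799), rose from 19.6 and 15.3 rpbp to 35.2 and 39.2 rpbp (log2 change 1.06 ± 0.13, adjusted p = 0.019). *Nfil3*, which opposes the PAR bZIP factors, rose from 25.4 and 29.4 rpbp to 48.0 and 51.7 rpbp (log2 change 0.84 ± 0.15, adjusted p = 0.041), and like *Slc41a2* it lost its call without the limma trend. *Nr1d1* (chromosome 11, 98629246 to 98636647) fell from 20.6 and 23.4 rpbp to 3.80 and 6.60 rpbp (log2 change -1.93 ± 0.21, adjusted p = 0.019). Its partner *Nr1d2* fell from 78.8 and 83.1 rpbp to 36.5 and 45.5 rpbp (log2 change -0.97 ± 0.14, adjusted p = 0.020). *Per2* was at 27.4 and 25.4 rpbp and then at 36.0 and 40.04 rpbp, its highest mean of the 5 times, with a log2 change of 0.51 ± 0.14 and an adjusted p of 0.12. *Per1* and *Per3* had both ZT14 values just below both ZT10 values, with changes of -0.40 ± 0.30 and -0.38 ± 0.18 that did not pass. *Gm129* (*Ciart*), another repressor of that pair, was at 17.6 and 14.7 rpbp and then at 6.80 and 6.52 rpbp, apart by more than the fold rule, but its change of -1.16 ± 0.31 had an adjusted p of 0.11. With a pseudocount of 4 rpbp it passed (-0.91, adjusted p = 0.038).

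The promoters of *Cry1*, which rose, and *Gm129*, which did not pass the test, are shown because both carry the E-box that CLOCK and BMAL1 bind. The 250 bases before the start were read from RefSeq (GRCm38.p6), 5′ to 3′ on the strand of the gene, with the E-box CACGTG, which reads the same on both strands, in capitals. *Cry1* lies at chr10:85185055-85185304 on the minus strand and holds 1 E-box, which begins 60 bases before the start. *Gm129* lies at chr3:95882229-95882478 on the minus strand and holds 3, the first beginning 116 and the last 44 bases before the start.
Cry1: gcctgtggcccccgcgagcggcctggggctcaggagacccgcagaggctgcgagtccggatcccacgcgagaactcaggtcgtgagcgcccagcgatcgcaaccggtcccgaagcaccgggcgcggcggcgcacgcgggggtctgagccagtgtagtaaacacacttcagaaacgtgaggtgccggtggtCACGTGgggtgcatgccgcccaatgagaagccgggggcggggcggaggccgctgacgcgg
Gm129: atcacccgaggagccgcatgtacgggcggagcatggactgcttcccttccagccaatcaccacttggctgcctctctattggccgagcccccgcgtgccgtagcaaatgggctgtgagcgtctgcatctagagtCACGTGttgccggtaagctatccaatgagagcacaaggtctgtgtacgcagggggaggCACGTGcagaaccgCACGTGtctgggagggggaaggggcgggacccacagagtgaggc
The E-box was found in 4 of the 9 repressors with a promoter in the table, against 1978 of all 32851 promoters, of 27025 genes (6.02%). The 4 were *Per1*, *Cry1*, *Gm129* and *Bhlhb3*, of which *Cry1* alone passed the test and *Bhlhb3* was below the expression minimum. The E-box was also in 4 of 10 glucocorticoid and 4 of 14 immediate early genes, and in none of 4 clock activators. It was found in 5 of the 52 risen genes with a promoter (9.62%) and in 2 of the 22 fallen ones (9.09%). A match is a description of these letters and not a binding site.

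In the 13 genes of PAR bZIP factors and clock output, none rose and 2 fell by limma (0.641% and 0.404% of all genes). At an unadjusted p below 0.05 were 0 and 8 (9.95% and 8.24% of all genes). Both ZT14 values lay below both ZT10 values in 10 (21.3% of all genes), and the median log2 change was -0.47. *Dbp*, the PAR bZIP factor with the strongest daily rhythm in liver (chromosome 7, 52960458 to 52965525), fell from 100 and 87.8 rpbp to 15.96 and 20.1 rpbp (log2 change -2.32 ± 0.27, adjusted p = 0.019) and fell again to ZT18 (log2 change -1.58, adjusted p = 0.047). *Inmt*, a methyltransferase, fell from 2874 and 2696 rpbp to 1669 and 2013 rpbp (log2 change -0.60 ± 0.11, adjusted p = 0.049), a call lost with a pseudocount of 0.1 rpbp and with other size factors. *Tef*, a relative of *Dbp*, had a change of -0.42 ± 0.13 (adjusted p = 0.14) and *Hlf* one of 0.06 ± 0.10. *Lpin1*, a phosphatidate phosphatase and coactivator, was at 95.8 and 161 rpbp and then at 49.2 and 33.8 rpbp (log2 change -1.58 ± 0.36, adjusted p = 0.085). *Alas1*, which starts haem synthesis, was at 867 and 815 rpbp and then at 204 and 206 rpbp. Its 4 values fell in separate pairs, but the spread at other times was large (126 and 469 rpbp at ZT6, 194 and 41.1 rpbp at ZT18), and the change of -2.03 ± 0.74 had an adjusted p of 0.21, or 0.027 in the fit of the 4 libraries alone.

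**Figure D3:**
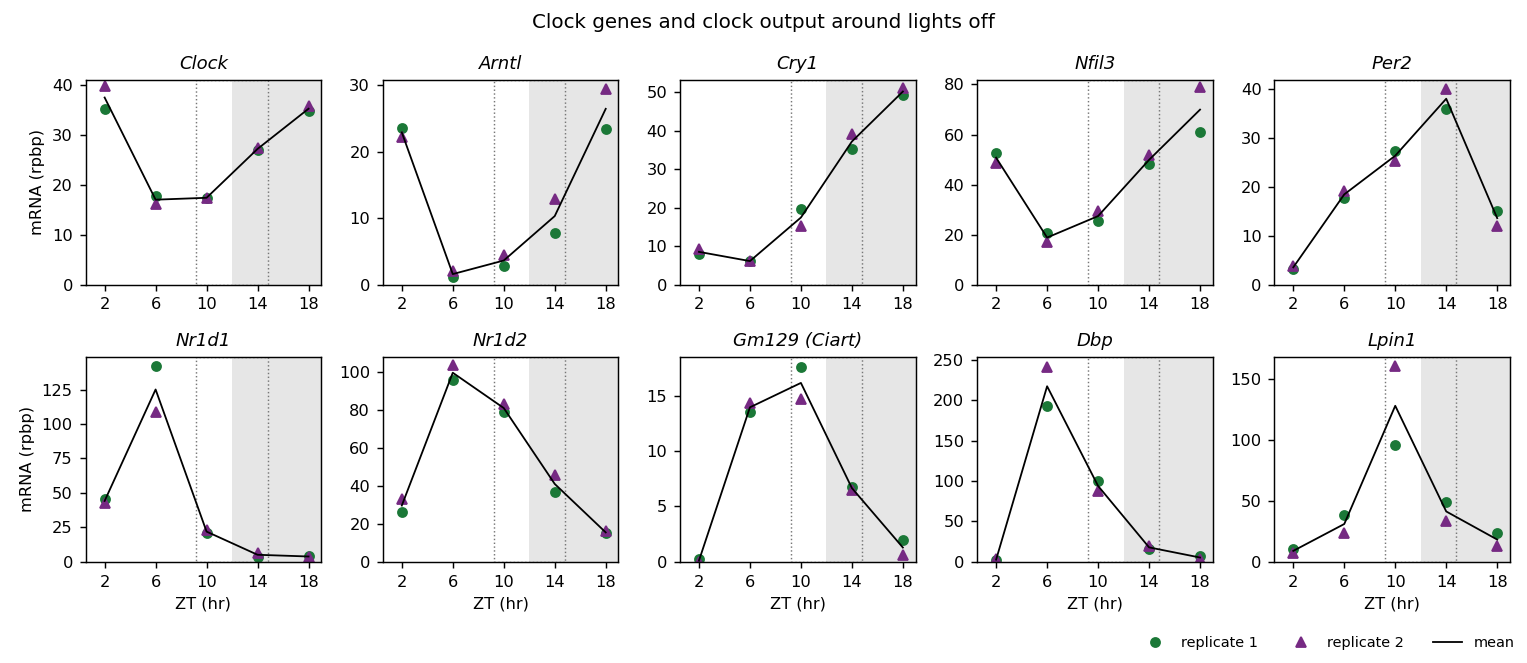
mRNA level in rpbp against ZT in hr for 10 clock and clock output genes. Circles and triangles are the first and second replicate, the line joins their means, grey is darkness and the dotted frame holds ZT10 and ZT14. *Clock*, *Cry1* and *Nfil3* rose and *Nr1d1*, *Nr1d2* and *Dbp* fell, while *Arntl*, *Per2*, *Gm129* and *Lpin1* did not pass the test.

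Among chaperone genes, few passed the test, all of them upward. Of 24 heat shock genes above the minimum, 2 rose and none fell (0.641% and 0.404% of all genes). At an unadjusted p below 0.05 were 10 and 0 (9.95% and 8.24% of all genes). Both ZT14 values lay above both at ZT10 in 18 (25.3% of all genes). The median log2 change was 0.33. *Hsp90aa1*, the inducible HSP90 (chromosome 12, 111928815 to 111940938), rose from 158 and 162 rpbp to 332 and 364 rpbp (log2 change 1.11 ± 0.14, adjusted p = 0.019). *Stip1*, a co-chaperone that links HSP70 and HSP90, rose from 56.8 and 57.8 rpbp to 88.8 and 91.0 rpbp (log2 change 0.64 ± 0.09, adjusted p = 0.019). *Hspa1b*, an inducible HSP70, was at 7.84 and 5.48 rpbp and then at 18.04 and 18.6 rpbp, with a change of 1.35 ± 0.28 and an adjusted p of 0.066 (0.034 with a pseudocount of 4 rpbp). It passed the minimum of 8 rpbp, and so entered the list, only through its ZT14 values. Its near-identical copy *Hspa1a* was at most 0.52 rpbp in the 4 libraries. Only reads with a unique place were kept, so that reads common to the 2 genes would be missing from both. *Hspa8*, the constitutive HSP70, was at 969 and 1084 rpbp and then at 1493 and 1657 rpbp (change 0.62 ± 0.17, adjusted p = 0.13). The mitochondrial chaperonin *Hspd1* had a change of 0.02 ± 0.10. *Hsf1*, the factor that activates heat shock genes, had a change of 0.30 ± 0.13 (adjusted p = 0.26). *Rbm3*, a cold-inducible RNA-binding protein, had a change of -0.34 ± 0.15 (adjusted p = 0.26), and an unadjusted p of 0.045. The other gene of that kind, *Cirbp*, was at 16.8 and 22.04 rpbp and then at 23.3 and 15.9 rpbp, and neither passed limma (8.24% of all genes have an unadjusted p below 0.05 downward).

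In the unfolded protein response, 20 of 24 genes had both ZT14 values above both ZT10 values (25.3% of all genes). An unadjusted p below 0.05 with a positive change was found in 18 (9.95%), but 1 rose by limma (0.641% of all genes). The median log2 change was 0.45. The gene that rose was *Syvn1*, a ubiquitin ligase of the endoplasmic reticulum (chromosome 19, 6046576 to 6053712), from 37.5 and 42.2 rpbp to 71.0 and 116 rpbp (log2 change 1.17 ± 0.20, adjusted p = 0.040). That call was lost with other size factors and without the limma trend. *Creld2*, a secreted stress protein, was at 27.7 and 40.5 rpbp and then at 68.6 and 170 rpbp (log2 change 1.66 ± 0.42, adjusted p = 0.10). *Sdf2l1* was at 28.8 and 25.6 rpbp and then at 50.5 and 113 rpbp (1.45 ± 0.40, adjusted p = 0.12), and *Hyou1*, a chaperone of the same compartment, at 55.3 and 77.0 rpbp and then at 109 and 207 rpbp (1.19 ± 0.32, adjusted p = 0.12). In all 4 genes the second ZT14 library was the higher of the 2. Without it the change of *Creld2* was 1.01, and without the first ZT14 library it was 2.31, neither passing the test. *Xbp1*, which encodes a transcription factor of the response, had a change of -0.07 ± 0.16 and *Atf6*, a sensor, one of 0.44 ± 0.17 (adjusted p = 0.22).

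Some promoters of the list hold a known stress element, and *Syvn1* and *Creld2* are shown as examples. The element searched, on both strands, was the ERSE of stress genes, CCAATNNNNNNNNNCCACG, set in capitals in the 250 bases before the start (RefSeq, GRCm38.p6). *Syvn1* lies at chr19:6046326-6046575 on the plus strand, with the element beginning 44 bases before the start. *Creld2* lies at chr15:88819396-88819645 on the plus strand and holds it in the reverse direction, beginning 126 bases before the start.
Syvn1: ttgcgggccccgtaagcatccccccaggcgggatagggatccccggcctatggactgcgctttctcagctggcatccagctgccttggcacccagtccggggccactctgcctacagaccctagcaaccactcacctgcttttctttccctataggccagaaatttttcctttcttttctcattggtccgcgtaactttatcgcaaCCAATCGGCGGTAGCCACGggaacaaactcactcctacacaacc
Creld2: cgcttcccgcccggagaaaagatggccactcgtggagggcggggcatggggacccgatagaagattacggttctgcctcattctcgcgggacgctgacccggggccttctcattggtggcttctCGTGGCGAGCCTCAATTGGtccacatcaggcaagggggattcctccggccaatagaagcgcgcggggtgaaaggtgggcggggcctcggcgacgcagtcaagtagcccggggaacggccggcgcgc
The element was found in 8 of the 21 genes of the list with a promoter in the table and in 37 of all 32851 promoters (0.113%). Since it is known from stress genes, its share in a list of such genes is a description and no test. Of the 8, *Syvn1* alone passed limma. Among the 52 risen genes with a promoter, *Syvn1* was the 1 that held the element. A match is a description of these letters and not a binding site.

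Fatty acid synthesis had the lowest median change of the 20 lists. Of 16 genes of fatty acid synthesis, 14 had a negative change (4906 of all 10141 genes), with a median of -0.64. *Scd1* fell and none rose (0.404% and 0.641% of all genes). At an unadjusted p below 0.05 were 1 upward and 6 downward (9.95% and 8.24% of all genes). Both ZT14 values lay below both ZT10 values in 7 (21.3% of all genes), and 3 met the fold rule downward (1.27%). *Acacb*, an acetyl-CoA carboxylase, was at 28.8 and 63.4 rpbp and then at 17.4 and 15.6 rpbp (log2 change -1.32 ± 0.33, adjusted p = 0.096). *Elovl6*, a fatty acid elongase, was at 158 and 395 rpbp and then at 138 and 90.8 rpbp (-1.15 ± 0.40, adjusted p = 0.19). *Mod1* (*Me1*), the malic enzyme, was at 174 and 650 rpbp and then at 167 and 91.3 rpbp (-1.44 ± 0.51, adjusted p = 0.20). As in *Scd1*, the second ZT10 library was the high one in all 3, and their changes rest on it. Without the first ZT10 library the changes of *Acacb*, *Elovl6* and *Mod1* were -1.88, -1.81 and -2.39 and passed the test, and without the second they were -0.77, -0.49 and -0.49 and did not (adjusted p = 0.26 to 0.58). *Thrsp*, a regulator of lipogenesis chosen for its low p after its values were seen, was at 4137 and 6240 rpbp and then at 2293 and 2735 rpbp (-1.02 ± 0.19, adjusted p = 0.052). With an expression minimum of 16 rpbp it passed limma (adjusted p = 0.047). Its change was -1.32 without the first ZT10 library and -0.72 without the second. *Srebf1* had a change of -0.09 ± 0.20 and *Mlxipl*, which encodes ChREBP, one of 0.38 ± 0.14 (adjusted p = 0.21).

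PPARA is the receptor that drives fatty acid oxidation in fasting. Of 16 genes of its list above the minimum, *Ppara* included, 3 fell and none rose (0.404% and 0.641% of all genes). At an unadjusted p below 0.05 were 10 and 0 (8.24% and 9.95% of all genes). Both ZT14 values lay below both ZT10 values in 11 (21.3% of all genes). A positive change was found in 1 (5231 of all 10141 genes), and the median log2 change was -0.49. Besides *Cyp4a14* and *Cyp4a10*, *Ehhadh*, an enzyme of peroxisomal beta-oxidation, fell from 483 and 703 rpbp to 321 and 268 rpbp (log2 change -0.99 ± 0.18, adjusted p = 0.043), a call lost without the limma trend. *Vnn1*, a pantetheinase, was at 43.3 and 118 rpbp and then at 4.52 and 16.6 rpbp (-2.88 ± 1.00, adjusted p = 0.19). *Ppara* itself was at 159 and 204 rpbp and then at 133 and 126 rpbp (-0.47 ± 0.13, adjusted p = 0.12), and its change was -0.65 and passed without the first ZT10 library, -0.295 without the second, and -0.51 and -0.43 without the first and second ZT14 library, none of these 3 passing.

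In cholesterol synthesis and uptake, 1 of 24 genes rose and none fell by limma (0.641% and 0.404% of all genes). A positive change was found in 23 (5231 of all 10141 genes), and both ZT14 values lay above both ZT10 values in 16 (25.3%). At an unadjusted p below 0.05 were 15 upward and 1 downward (9.95% and 8.24% of all genes), and the median log2 change was 0.53. The 1 that rose by limma was *Srebf2*, which encodes the master activator of the pathway (chromosome 15, 81977696 to 82035806). Its mRNA was 19.7 and 20.6 rpbp at ZT10 and 33.7 and 42.4 rpbp at ZT14 (log2 change 0.88 ± 0.12, adjusted p = 0.019). *Idi1*, the isopentenyl diphosphate isomerase, was at 148 and 131 rpbp and then at 294 and 360 rpbp (1.22 ± 0.26, adjusted p = 0.069). *Sqle*, the squalene epoxidase, was at 45 and 18.8 rpbp and then at 89.9 and 135 rpbp (1.88 ± 0.51, adjusted p = 0.12), with a change of 2.49 without the first ZT10 library and 1.27 without the second. *Mvd* and *Mvk*, enzymes of the mevalonate pathway, had changes of 1.37 ± 0.42 and 1.07 ± 0.28 with adjusted p of 0.15 and 0.11. All 5 genes had their highest mean of the 5 times at ZT14.

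**Figure D4:**
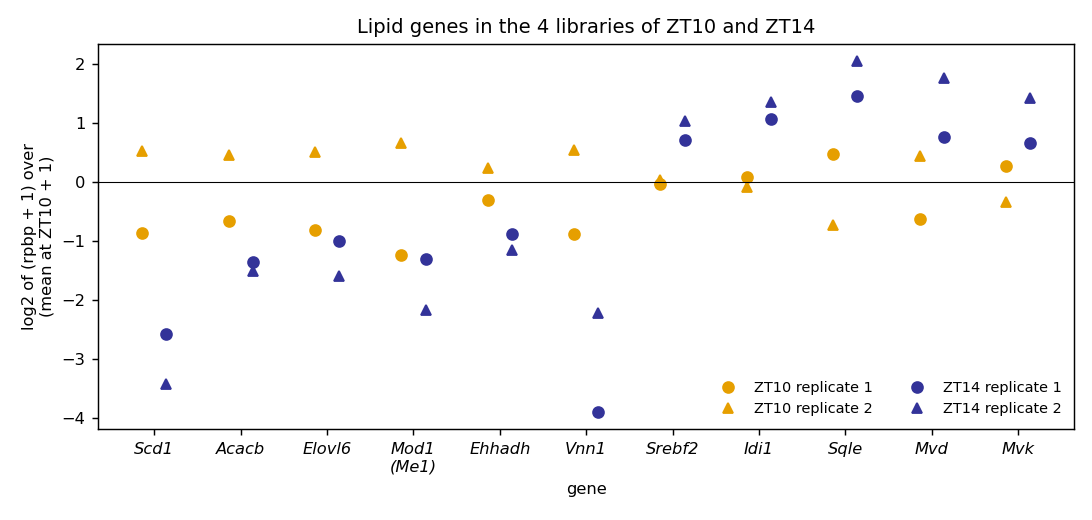
Level of 11 lipid genes in each of the 4 libraries, as log2 of rpbp plus 1 over the mean at ZT10 plus 1 (orange for ZT10, blue for ZT14, circles and triangles for the first and second replicate). From *Scd1* to *Vnn1* both ZT14 libraries lie below both ZT10 libraries and from *Srebf2* to *Mvk* above, with wide gaps between the ZT10 replicates in most genes.

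Other metabolic lists had few calls. In glucose uptake and glycolysis, none of 12 genes was called by limma, 2 had an unadjusted p below 0.05, both downward (8.24% of all genes), and none met the fold rule. *Pklr*, the liver pyruvate kinase, was at 546 and 806 rpbp and then at 463 and 279 rpbp (log2 change -0.88 ± 0.28, adjusted p = 0.16). In gluconeogenesis and amino acid breakdown, 1 of 15 genes fell and none rose (0.404% and 0.641% of all genes). At an unadjusted p below 0.05 were 3 and 0 (8.24% and 9.95% of all genes). The gene that fell was *Sds*, the serine dehydratase, from 311 and 283 rpbp to 182 and 164 rpbp (log2 change -0.77 ± 0.13, adjusted p = 0.037), a call lost without the limma trend. *Pck1*, the key enzyme of gluconeogenesis, was at 782 and 1184 rpbp and then at 868 and 608 rpbp (log2 change -0.40 ± 0.23, adjusted p = 0.38). The 6 urea cycle genes and the 12 bile acid genes gave no call, with 1 unadjusted p below 0.05 in each list, upward in both (9.95% of all genes), and *Cyp7a1*, the rate-limiting enzyme of bile acid synthesis, was at 203 and 81.4 rpbp and then at 121 and 84.4 rpbp. The largest change of the bile acid list was in *Cyp7b1*, an oxysterol hydroxylase, at 329 and 89.2 rpbp and then at 399 and 639 rpbp (log2 change 1.55 ± 0.56, adjusted p = 0.21). It was 2.49 and passed without the first ZT10 library, and 0.62 without the second. Among 13 insulin and FOXO genes, *Irs1*, the insulin receptor substrate, rose from 5.88 and 5.32 rpbp to 10.8 and 11.8 rpbp (log2 change 0.90 ± 0.16, adjusted p = 0.041), a call lost with other size factors, while *Irs2* had a change of 0.59 ± 0.46. *Irs1* was the 1 called gene of that list (0.641% of all genes) and its 1 gene at an unadjusted p below 0.05 upward (9.95%), and the median log2 change was 0.07.

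Stress, immune and growth lists gave 1 call among them. No gene was called in the immediate early (12 genes), glucocorticoid (12), acute phase (14), cell cycle (3) and actin (11) lists, where 1, 1, 3, 0 and 1 genes had an unadjusted p below 0.05 (18.2% of all genes) and 0, 0, 2, 0 and 0 met the fold rule, both of them upward (1.38% of all genes). *Tsc22d3*, a glucocorticoid-induced gene, was at 164 and 143 rpbp and then at 217 and 216 rpbp (log2 change 0.50 ± 0.16, adjusted p = 0.16). The 2 acute phase genes that met the fold rule were *Socs3*, an inhibitor of cytokine signalling (6.96 and 6.28 rpbp, then 13.8 and 17.9 rpbp, adjusted p = 0.14), and *Saa1*, an acute phase protein (91.6 and 129 rpbp, then 233 and 200 rpbp, adjusted p = 0.29). In ribosome biogenesis 1 of 21 genes rose (0.641% of all genes), 2 had an unadjusted p below 0.05 upward (9.95%) and 5 had both ZT14 values above both ZT10 values (25.3%), the last 2 counts being near the shares of all genes. The gene that rose was D13Wsu177e (*Nop16*), from 29.2 and 30.3 rpbp to 54.6 and 49.1 rpbp (log2 change 0.78 ± 0.10, adjusted p = 0.019).

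**Figure D5:**
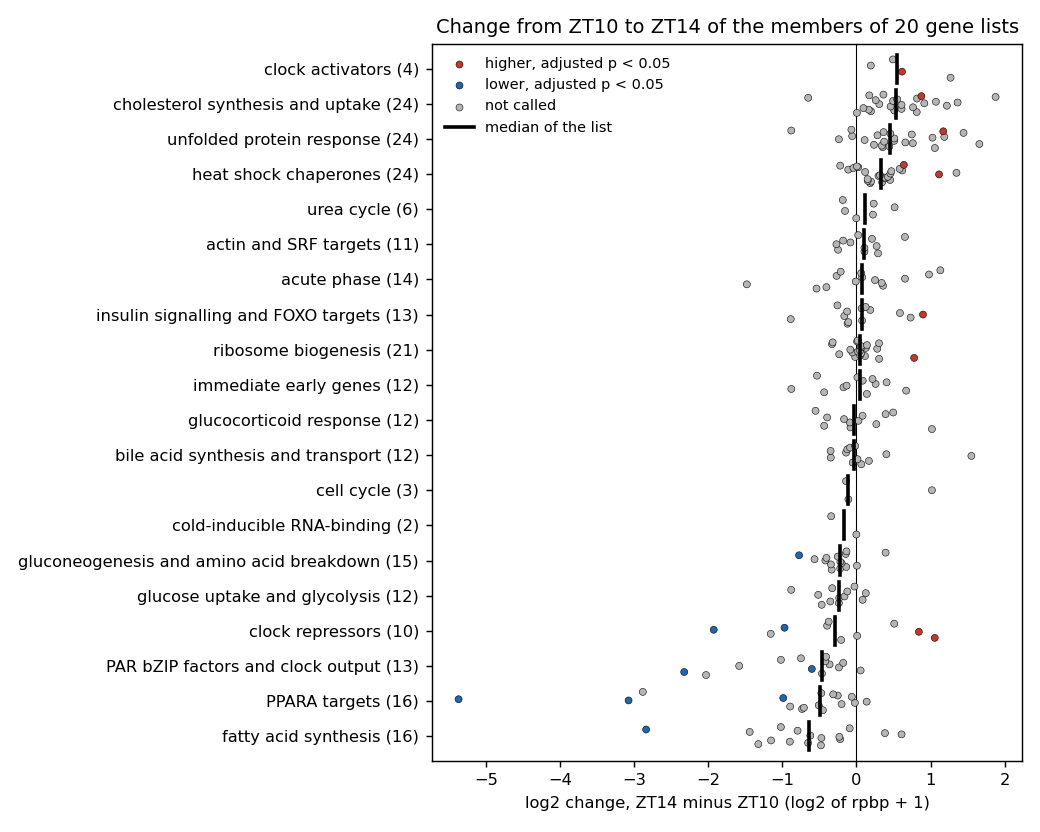
Log2 change from ZT10 to ZT14 of each expressed member of 20 gene lists (x axis, log2 of rpbp plus 1), with the number of members in brackets and a black bar at the median. Red and blue points passed limma upward and downward. The medians run from -0.64 for fatty acid synthesis to 0.55 for the clock activators.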

How the data were processed

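Poly(A) RNA of whole livers was sequenced in 12 samples, from 4 ug of total RNA each. According to the methods and the submitters' processing notes, sequences were called with CASAVA 1.8 and mapped to mm9 with TopHat, and those with a unique place were kept. The deposited signal is, for each gene, the coverage that the authors summed over its flattened exons without regard to strand, divided by the exon length and scaled to 10000000 uniquely mapped sequences. It holds no counts, so no counting interval is given, and the library totals of the study were not used here. Overlapping and antisense genes cannot be told apart. The deposited 24 hr score, phase and p-value columns of the authors describe rhythms and were not used, nor were 2 sample columns named for a time that no label gives.

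The signal was multiplied by 4. Genes with a value above 8 rpbp in the 10 libraries used (ZT2, ZT6, ZT10, ZT14, ZT18, 2 each) were fitted with limma 3.58.1 (R 4.3.3) on log2(rpbp + 1) with 1 mean per time, a trend in the prior and Benjamini-Hochberg adjustment over 10141 genes. The contrast was ZT14 minus ZT10, called at an adjusted p below 0.05. Log2 changes understate those of low genes, and ± is the SE unless stated. The methods describe the 2 profiles of the day as independent, and the labels give a replicate number only, so that p-values measure the spread between these samples. The fold rule needs the lower of 2 values at one time to be at least 1.5 times the higher of 2 at the other. The members and gene lists were chosen with earlier results of these data known. Genes named are the 15 largest rises and falls past both rules with a mean of at least 8 rpbp, the members of the clock, output, heat shock and cold lists, and from other lists up to 4 with the largest changes and the regulators. Some genes are not reported here. Exceptions are stated or lie at the limits of the fold rule. Older symbols were matched through RefSeq. Coordinates are those of GENCODE for mm9, and promoters are RefSeq's on GRCm38.p6. The fit was tested on simulated data. Python 3.11.15, numpy 2.4.6, pandas 2.3.3 and matplotlib 3.10.9 were used.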

Additional observations from a re-analysis of the deposited data

How the results depend on the processing

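The 65 rises and 41 falls became 61 and 36 with a pseudocount of 0.1 rpbp, 70 and 39 with 4 rpbp, 63 and 38 with a minimum of 16 rpbp, and 53 and 44 with size factors by the median of ratios, which move the median log2 change of all genes from 0.01 to -0.01. Without an expression minimum limma called 5 rises and 5 falls, and without its trend 49 and 22. In a fit of the ZT10 and ZT14 libraries alone it called 2 and 4. The cause of these drops was not tested. With 1 library left out, limma called 0 to 95 rises and 2 to 126 falls. The fold rule gave 140 rises and 129 falls, 37 and 50 at a fold of 2, 2568 and 2163 at any fold, 576 and 605 without a minimum, and 295 to 389 and 221 to 442 with 1 library left out. Of the 49 called genes named here, 43 and 47 were still called with pseudocounts of 0.1 and 4 rpbp, 46 with a minimum of 16 rpbp, 43 with other size factors, 33 without the trend, 4 in the fit of the ZT10 and ZT14 libraries alone and 2 without an expression minimum, and none changed direction in any fit. Among uncalled genes, the direction turned with 1 library left out in *Cyp7a1* (log2 change -0.999 to 0.306), *Hspd1* (-0.044 to 0.093), *Cirbp* (-0.264 to 0.263, and 0.001 with a pseudocount of 4 rpbp), *Srebf1* (-0.258 to 0.076) and *Xbp1* (-0.300 to 0.164).

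With the replicate number as a block, 46 genes rose and 22 fell, 31 of the 49 named calls were kept, and *Arntl* and *Creld2* passed too (adjusted p = 0.044 and 0.037). The samples share only a number: deviations from the time means of same-numbered samples correlated at -0.154 between ZT10 and ZT14, and at -0.154 to 0.109 over all pairs of times. With the numbers crossed at ZT10, an alternative chosen after seeing the data, 58 genes rose and 38 fell, and 43 of the 49 named calls were kept. *Lpin1*, *Idi1* and *Sqle* passed limma too in that fit (adjusted p = 0.0074, 0.047 and 0.038). The signal holds no counts and the library totals that the study gives were not used, so that the precision set by depth is not given. The spread between the 2 libraries of a time limits what can be called.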

Other observations

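Some further changes lay outside the lists, and the genes given here were chosen after their values were seen. *Esr1*, the oestrogen receptor alpha, rose from 14.6 and 17.8 rpbp at ZT10 to 32.0 and 30.5 rpbp at ZT14 (limma log2 change 0.91 ± 0.15, SE, adjusted p = 0.035). *Stat3*, a transcription factor of cytokine signalling, rose from 49.2 and 49.96 rpbp to 73.6 and 71.9 rpbp (0.54 ± 0.10, adjusted p = 0.045). *Cxcl12*, a chemokine, rose from 142 and 126 rpbp to 218 and 197 rpbp (0.63 ± 0.10, adjusted p = 0.035). *Thpo*, the thrombopoietin made by hepatocytes, rose from 10.7 and 11.9 rpbp to 18.6 and 18.1 rpbp (0.66 ± 0.12, adjusted p = 0.047). *Gldc*, of the glycine cleavage system, rose from 67.8 and 69.4 rpbp to 132 and 108 rpbp (0.79 ± 0.12, adjusted p = 0.024). The entry Hsp110, a name that RefSeq gives as a synonym of both *Hsph1* and *Hspa4* and that was therefore in no list, rose from 22.6 and 20.7 rpbp to 42.2 and 47.7 rpbp (1.02 ± 0.13, adjusted p = 0.019). *Hspa4* has an entry of its own (0.12 ± 0.09) and no entry was matched to *Hsph1*. Hsp110 is thus most likely *Hsph1*, a gene that the heat shock counts leave out.

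Among the falls, *Klf9*, a transcription factor induced by glucocorticoids, went from 59.0 and 79.4 rpbp to 34.6 and 35.5 rpbp (-0.95 ± 0.16, adjusted p = 0.037). *Atg7*, an enzyme of autophagy, went from 17.4 and 31.1 rpbp to 8.64 and 9.44 rpbp (-1.27 ± 0.22, adjusted p = 0.041). A marker of another cell type passed the test, *Lrat*, a retinol esterifying enzyme of stellate cells, with 10.96 and 12.8 rpbp at ZT10 and 25.2 and 30.8 rpbp at ZT14 (1.17 ± 0.17, adjusted p = 0.020). The 6 stellate cell markers together summed to 204 and 200 rpbp at ZT10 and to 226 and 248 rpbp at ZT14. *Dcn* made up most of that sum (173 and 161 rpbp, then 171 and 195 rpbp). Of the 4 above the minimum, 1 rose (0.641% of all genes) and 2 had both ZT14 values above both ZT10 values (25.3%). Another of them, *Col3a1*, was at 7.48 and 13.8 rpbp and then at 12.7 and 6.28 rpbp.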
